A study of Mus musculus with 6 samples.

Results

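Tslp, the chains of the receptors for thymic stromal lymphopoietin, interleukin 4 and interleukin 13, and the transcription factor Stat6 were followed in RNA of newborn mouse back skin epidermis. These 8 genes (Tslp, Il4ra, Il13ra1, Il13ra2, Il2rg, Crlf2, Il7r and Stat6) were taken by symbol from tables of 24014 genes, and all 8 were listed and passed the filter on low counts. They were named with the difference between blister and control skin already known, so that difference is given here as a description with no p-value. Where one of the 8 is said to be called or not, this records its place in the test run over all genes and supports nothing. The study asked how epidermis heals a blister while the skin is still developing. In 3 libraries the wild type dorsal skin was healing after negative pressure had lifted epidermis off the dermis as a suction blister; 3 libraries came from control wild type skin, and all 6 were collected on postnatal day 2. Cells were freed with trypsin overnight, so each library held whatever came away with the epidermis. In bulk RNA, fewer cells of a type and less RNA per cell cannot be told apart.

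Thymic stromal lymphopoietin is a cytokine that keratinocytes release when the barrier is injured. It binds Crlf2, which signals together with Il7r. Interleukin 4 and interleukin 13 share the chain Il4ra: with Il2rg, the common gamma chain, it forms the receptor of lymphoid cells that takes interleukin 4, and with Il13ra1 it forms the receptor of epithelial cells that takes both cytokines. Il13ra2 binds interleukin 13 tightly and is best known as a decoy. Janus kinases on the receptors that contain Il4ra phosphorylate Stat6. It then enters the nucleus and drives genes of type 2 immunity, the response known from allergy, worm infection and atopic skin.

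Total counts ran from 7600567 to 15912863 per library. Of 14028 genes tested, 21.3% were called between blister and control by the quasi-likelihood test of edgeR, with Benjamini-Hochberg adjusted p under 0.05: 9.74% were higher and 11.6% lower in blister. The median log2 fold change of all tested genes was 0.00 with the scaling used, and library size alone shifted it by -0.25. Levels are given as CPM, counts relative to library size scaled with TMM factors, and values of single libraries are listed in the order of replicates 1, 2 and 3 of a group. Libraries differed in sex-linked RNA without following the groups: Xist, the RNA that coats the inactive X, stood at 838, 879 and 8.49 CPM in the blister libraries and 1409, 16.9 and 0.512 CPM in the controls. The labels do not say whether libraries came from separate animals, so p-values measure only how these libraries vary, part of which may be technical.

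The windows before the start sites of Il4ra, Il13ra1 and Il13ra2 are shown because these chains bind the same cytokines and differed in how they stood in the blister, as given below. Each is 250 bases long, ends at the base before the RefSeq start (GRCm38.p6), is written 5′ to 3′ on the gene's strand, and has its CG dinucleotides in capitals. They lie at chr7:125552021-125552270 (Il4ra, plus strand), chrX:36111858-36112107 (Il13ra1, plus strand) and chrX:147429193-147429442 (Il13ra2, minus strand).
Il4ra: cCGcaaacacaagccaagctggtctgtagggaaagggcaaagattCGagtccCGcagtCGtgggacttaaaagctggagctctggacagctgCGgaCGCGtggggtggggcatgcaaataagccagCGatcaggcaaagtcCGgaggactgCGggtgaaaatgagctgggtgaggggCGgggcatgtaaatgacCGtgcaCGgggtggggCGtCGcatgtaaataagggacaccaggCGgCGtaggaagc
Il13ra1: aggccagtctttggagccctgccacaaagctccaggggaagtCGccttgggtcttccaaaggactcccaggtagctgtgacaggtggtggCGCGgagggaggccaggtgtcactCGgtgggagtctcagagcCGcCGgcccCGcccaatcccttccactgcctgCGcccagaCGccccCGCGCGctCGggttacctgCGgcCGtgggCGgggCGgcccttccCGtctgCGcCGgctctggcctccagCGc
Il13ra2: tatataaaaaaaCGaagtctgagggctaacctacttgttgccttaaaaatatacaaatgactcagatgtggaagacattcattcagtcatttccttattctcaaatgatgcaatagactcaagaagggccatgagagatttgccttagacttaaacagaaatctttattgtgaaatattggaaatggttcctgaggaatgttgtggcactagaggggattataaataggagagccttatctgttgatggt

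The Il4ra and Il13ra1 windows held 17 and 21 CG dinucleotides at 59.6% and 70.8% G and C. The Il13ra2 window held 1, at 36.0%. The median of 32851 RefSeq promoter windows of this length was 6 CG dinucleotides and 52.4%. Windows were read for 7 of the 8 genes, and none was read for Tslp. The others held 24 (Crlf2), 6 (Stat6), 3 (Il2rg) and 1 (Il7r) CG dinucleotides. Of the 7 windows, those of the receptor genes called higher in blister below (Il4ra, Il13ra1 and Crlf2) held the most CG dinucleotides. The genes were chosen on that comparison, so nothing is read from this relation, which was not tested. On both strands, none of the 7 windows held the Stat6 motif TTCNNNNGAA, which 5.85% of all windows hold, or the NF-kappaB consensus, which 3.9% hold. The general Stat motif TTCNNNGAA (7.02% of windows) was found once, in Il7r, as TTCAGGGAA, and the AP-1 motif TGANTCA (6.75%) once, in Il13ra2, as TGACTCA starting 193 bases before the start. These motifs do not overlap each other in the windows, and a match is a stretch of letters, not a site of binding.

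Tslp, the ligand, went from nearly no reads in control skin to a clear signal in each blister library. It stood at 27.2, 6.33 and 8.24 CPM (296, 46 and 97 counts) in the blister libraries and 0.230, 0.0700 and 0.284 CPM (3, 1 and 5 counts) in the controls. The groups did not overlap, and blister 1 stood far above the other two blister libraries. The means were 13.9 ± 11.5 and 0.195 ± 0.111 CPM (SD, n = 3 each). With 439 counts against 9, the pooled ratio was 73.2, with a 95% interval of 38.2 to 161 that covers counting error only. Without blister 1 the blister mean was 7.28 CPM, 37.4 times the control mean, against 71.4 times with all libraries, and the fitted log2 fold change went from 6.06 ± 0.78 (SE) to 5.15. The control level rests on those 9 reads.

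Il4ra, the chain common to the interleukin 4 and interleukin 13 receptors, had the largest fold change of the 6 receptor chains. It stood at 137, 106 and 63.3 CPM in the blister libraries and 20.7, 16.9 and 23.6 CPM in the controls. Each blister library lay above each control, and blister 3 was the lowest of its group. The means were 102 ± 37.1 and 20.4 ± 3.34 CPM, a log2 fold change of 2.32 ± 0.28 (SE).

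Il13ra1, its partner on epithelial cells, varied least, relative to its mean, among the genes called. It stood at 254, 184 and 202 CPM in the blister libraries and 82.5, 75.3 and 79.6 CPM in the controls. The lowest blister library was above the highest control by more than the whole range of the controls. The means were 213 ± 36.5 and 79.1 ± 3.60 CPM, a log2 fold change of 1.43 ± 0.14 (SE). Il13ra1 lies on the X chromosome, so its values were also read among libraries of like Xist level: the 2 blister libraries high in Xist were at 254 and 184 CPM against 82.5 CPM in the control high in Xist, and the blister library low in Xist was at 202 CPM against 75.3 and 79.6 CPM. With Xist as a covariate its log2 fold change was 1.40.

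Il13ra2, the decoy chain, was scarce in both groups. It had 10, 11 and 15 counts in the blister libraries and 17, 27 and 12 counts in the controls, or 0.918, 1.51 and 1.27 CPM against 1.30, 1.89 and 0.683 CPM. The blister libraries all lay inside the range of the controls. The log2 fold change was -0.07 ± 0.45 (SE), an error wide enough that a change of the size of its SE in either direction was not detectable at this depth. Il13ra2 also lies on the X chromosome, and with Xist as a covariate its log2 fold change was -0.14. Whether Il13ra1 and Il13ra2 differed in their change was not tested.

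**Figure D1:**
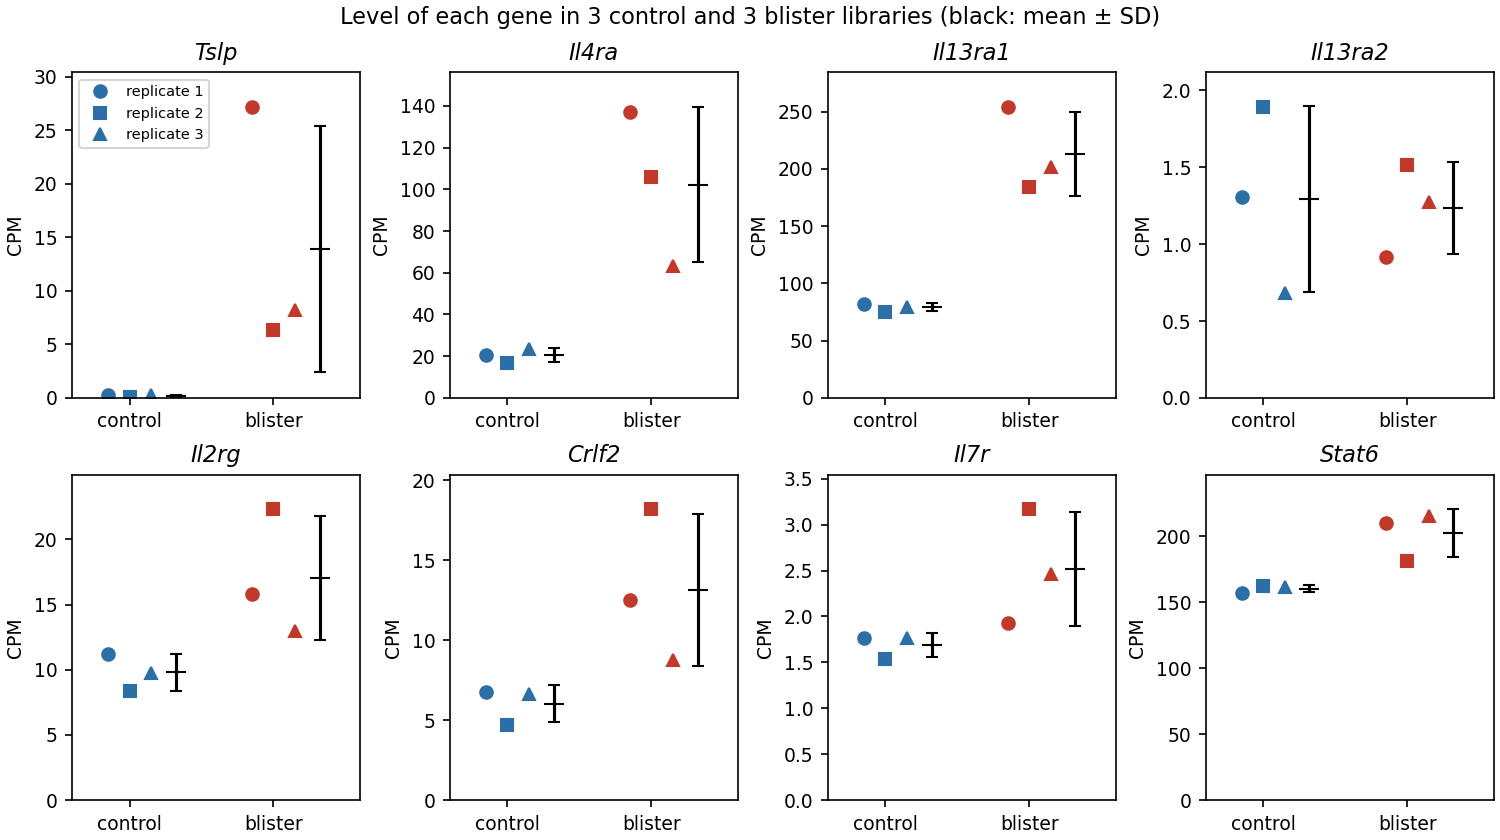
Level of each of the 8 genes in CPM (vertical axis, from 0, a scale of its own per gene) in 3 control (blue) and 3 blister (red) libraries, with the replicate number as marker shape and the mean ± SD in black. Blister points lie above all control points for every gene but Il13ra2, and in Tslp blister 1 stands at 27.2 CPM against 6.33 and 8.24 CPM in the other two.

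Il2rg, the common gamma chain, stood modestly higher in blister libraries. It stood at 15.8, 22.3 and 13.0 CPM in the blister libraries and 11.2, 8.40 and 9.78 CPM in the controls. The groups did not overlap, but blister 3 was closer to control 1 than to blister 2. The log2 fold change was 0.79 ± 0.24 (SE), and the gene was not among those called. Il2rg also lies on the X chromosome, and with Xist as a covariate its log2 fold change was 0.66.

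Crlf2, the chain that binds thymic stromal lymphopoietin, stood higher in each blister library than in any control. It stood at 12.5, 18.2 and 8.75 CPM in the blister libraries and 6.75, 4.69 and 6.66 CPM in the controls. Blister 2 was highest and blister 3 lay nearest the controls. The means were 13.1 ± 4.75 and 6.03 ± 1.16 CPM, a log2 fold change of 1.11 ± 0.31 (SE). The gene was among those called with all 6 libraries. It was no longer called when blister 1, blister 2, control 1, control 2 or control 3 was left out (log2 fold changes of 1.16, 0.82, 1.20, 0.96 and 1.19). Nor was it called with library size alone (0.86), the replicate number as a block (1.07) or Xist as a covariate (0.96).

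Il7r, the signalling partner of Crlf2, was near the limit of these counts, with 21 to 31 counts in every library. It stood at 1.93, 3.17 and 2.46 CPM in the blister libraries and 1.76, 1.54 and 1.76 CPM in the controls. Blister 1 was barely above the highest control. The log2 fold change was 0.56 ± 0.30 (SE), and the gene was not called.

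Stat6, the transcription factor downstream of Il4ra, was abundant in every library and differed little. It stood at 210, 182 and 216 CPM in the blister libraries and 157, 163 and 161 CPM in the controls. The groups did not overlap, and the controls lay within a few CPM of each other. The log2 fold change was 0.34 ± 0.11 (SE), not called, and it was 0.08 with library size alone, a scaling that lowers all genes by 0.25 at the median.

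Among the 8 genes, 4 were called higher in blister (Tslp, Il4ra, Il13ra1 and Crlf2) and 0 lower, against 9.74% and 11.6% of all tested genes. In 7 of the 8, every blister library was above every control, against 21.4% of all tested genes, and in 0 was every blister library below every control, against 23.2%. The median log2 fold change of the 8 was 0.95. Since the genes were chosen on this comparison, nothing is read from these counts.

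Per kilobase of exon, the order of the 8 genes differed between the groups. In control skin, Stat6 was highest at 36.4 ± 0.609 CPM per kilobase (SD, n = 3), followed by Il13ra1 at 21.3 ± 0.969. Il2rg, Crlf2 and Il4ra came next at 4.10 ± 0.586, 4.04 ± 0.778 and 3.40 ± 0.557 CPM per kilobase, with overlapping library values. Il13ra2 and Il7r were at 0.567 ± 0.265 and 0.362 ± 0.0277, within the spread of the former, and Tslp was lowest at 0.146 ± 0.0838. In blister skin Il13ra1 and Stat6 led at 57.4 ± 9.82 and 46.0 ± 4.12 CPM per kilobase, and Il4ra came next at 17.0 ± 6.19. Tslp, Crlf2 and Il2rg followed at 10.5 ± 8.65, 8.78 ± 3.17 and 7.13 ± 2.001, with overlapping library values. Blister 1 carried the Tslp level, at 20.4 against 4.76 and 6.19 CPM per kilobase in the other two blister libraries, and the Tslp mean without it was 5.47, below both chains. Il13ra2 and Il7r were last at 0.542 ± 0.132 and 0.540 ± 0.133. Tslp was thus the lowest of the 8 in control and above Il13ra2 and Il7r in each blister library, and Il4ra went from a level near Crlf2 and Il2rg to one above their means.

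**Figure D2:**
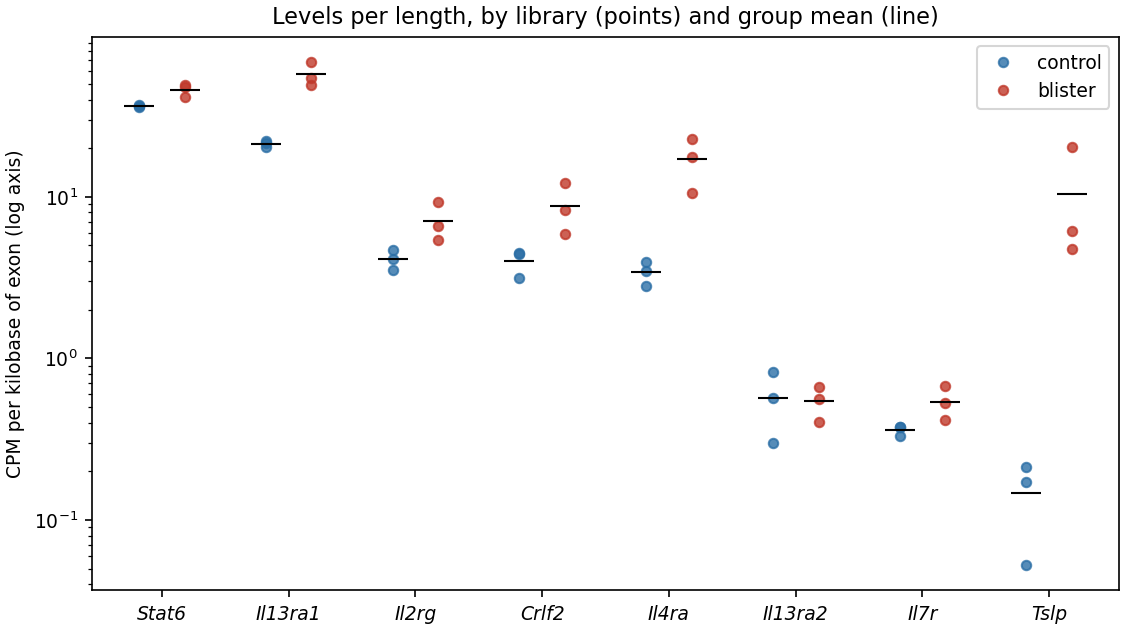
CPM per kilobase of exon (log axis) of the 8 genes in control (blue) and blister (red) libraries, ordered by the control mean; points are libraries and black lines are group means. Il13ra1 passes Stat6 in the blister means, and Tslp goes from 0.146 to 10.5 CPM per kilobase (5.47 without blister 1).

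Ratios of these per-length levels were taken within each library. They are ratios of RNA over all cells of a library, and the receptors on cells were not measured. Il13ra1 was 2.99, 2.80 and 5.15 times Il4ra in the blister libraries and 6.44, 7.19 and 5.45 times Il4ra in the controls. The epithelial partner was the more abundant in each library, and the blister ratios all lay below those of the controls. Il2rg was at 0.289, 0.528 and 0.516 of Il4ra in the blister libraries and at 1.36, 1.25 and 1.04 in the controls, so the common gamma chain exceeded Il4ra in each control and in no blister library. Crlf2 exceeded Il7r in all 6 libraries, by 11.1 to 20.2 times in blister and 9.50 to 11.9 times in control. These ratios come from the comparison that chose the genes and are descriptions.

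The genes whose log2 CPM over the 6 libraries most resembled a given member were found among 11237 or 11238 others at a mean of 5 CPM or more. For Tslp these were Ptbp3 (Pearson r = 0.999), Sowahc (0.999) and Herc4 (0.998), for Il4ra Ssr3 (0.999), Prdx3 and Ccdc71l (both 0.998), and for Il13ra1 Krt6b (0.998), Herc4 (0.998) and Ptbp3 (0.997). For Crlf2 they were Phf7 (0.997), Tfdp1 (0.997) and Cebpz (0.996), for Il2rg Rac2 (0.995), Phf7 and Top1mt (both 0.993), for Il7r Ncf1 (0.999), Dusp9 (0.997) and Cpe (0.992), and for Stat6 Nab1, Gstcd (both 0.995) and Dsg1b (0.994). Between 68 (Il7r) and 497 (Il4ra) genes exceeded 0.95 with these 7 members and between 4 (Il7r) and 40 (Il13ra1) exceeded 0.99, and the libraries fall into the 2 groups compared. For Il13ra2, with 10 to 27 counts, the nearest were Tmem189 (0.953), Tmem194b (0.945) and Neurl1b (0.938).

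The other genes of the pathway were taken from lists of 78 genes by role, of which 55 passed the filter. These lists and the marker lists below were chosen with earlier results of these data known, so their calls and p-values are descriptions only. Of these, 11 were higher in blister (20%, against 9.74% of all tested genes) and 5 lower (9.09%, against 11.6%), with a median log2 fold change of -0.05. The 16 called genes kept their direction under every alternative that tested them. Il33, Il24 and Il1b also kept their call in all of these.

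Among the other ligands, transcripts of the type 2 cytokines were all but absent. Il4, which acts through Il4ra, had 1 count in blister 1 and 3 in control 3, and 0 in the remaining libraries. Il13, the other ligand of these receptors, had 5 counts in blister 2, 2 in control 1 and 3 in control 3, and 0 in the others. For Il31, the itch cytokine, 0 counts in all 6 libraries allow up to 0.0401 CPM by a floor of 3 counts, for counting error only. Il5, Il9, Il25, Il7, Il2 and Il21 each had 5 counts or fewer in any library, and these genes did not pass the filter. Of 11 listed ligands 2 were tested, and 1 rose and 0 fell (50% and 0%, against 9.74% and 11.6% of all tested genes). The riser was Il33, an alarmin of barrier cells that triggers type 2 lymphoid cells, which went from 3.56 ± 1.64 to 154 ± 51.6 CPM (edgeR adjusted p = 0.00343). Il15 was at 3.37 ± 1.47 in blister against 3.01 ± 1.38 CPM (edgeR adjusted p = 0.799; chosen after its value was seen).

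Of 9 tested receptor chains outside the 8 genes, 3 rose and 1 fell (33.3% and 11.1%, against 9.74% and 11.6% of all tested genes). Csf2rb, the chain shared by receptors for interleukin 3, interleukin 5 and GM-CSF, rose from 3.59 ± 1.40 to 13.4 ± 5.45 CPM (edgeR adjusted p = 0.0215). Its near-identical copy Csf2rb2 rose from 1.88 ± 0.350 to 6.37 ± 3.59 CPM (edgeR adjusted p = 0.0340). Reads may be split between the pair. Il1rap, a chain of the interleukin 33 and interleukin 1 receptors, rose from 27.4 ± 1.15 to 40.6 ± 7.08 CPM (edgeR adjusted p = 0.0347). Il31ra, the receptor chain for interleukin 31, fell from 7.24 ± 4.72 to 0.811 ± 0.774 CPM (edgeR adjusted p = 0.0234; 4.51 CPM in control without control 3 and 0.367 CPM in blister without blister 3). Il1rl1, the chain that binds interleukin 33, had 3, 37 and 7 counts in the blister libraries and 3, 0 and 80 in the controls, and did not pass the filter. Each of the 4 calls was lost without blister 1, blister 2 or control 1, those of Csf2rb and Csf2rb2 also without control 2, those of Il31ra and Csf2rb2 also without control 3, and that of Il1rap also without control 2 or 3, with edgeR adjusted p of up to 0.0772 (Csf2rb), 0.110 (Csf2rb2), 0.108 (Il1rap) and 0.0837 (Il31ra). Library size alone ended the calls of Il1rap (log2 fold change 0.32, edgeR adjusted p = 0.209) and Csf2rb2 (1.48, 0.0503), and Xist as a covariate those of Csf2rb (1.81, 0.0641) and Csf2rb2 (1.54, 0.106). For Csf2rb2, limma-voom gave an adjusted p of 0.0578. The replicate number as a block ended the calls of Il1rap, Csf2rb and Csf2rb2 (edgeR adjusted p = 0.0551, 0.0580 and 0.0696). Leaving out blister 3 and control 3 together ended that of Il1rap (edgeR adjusted p = 0.0845).

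Of the Janus kinases, Jak1, which sits on Il4ra and on Il7r, rose from 175 ± 7.95 to 271 ± 47.7 CPM (edgeR adjusted p = 0.0281). Jak2 was at 66.0 ± 9.12 against 74.6 ± 13.4 CPM, Jak3, the partner of Il2rg, at 6.08 ± 0.634 against 6.30 ± 0.658 CPM, and Tyk2, which pairs with Il13ra1, at 45.8 ± 4.31 against 48.9 ± 1.61 CPM (edgeR adjusted p = 0.461, 0.868 and 0.578). Among the 9 tested kinases and signal carriers, 2 rose and 1 fell (22.2% and 11.1%, against 9.74% and 11.6% of all tested genes). The other riser was Stat3, a transcription factor of interleukin 6 type cytokines (226 ± 17.6 to 332 ± 42.8 CPM, edgeR adjusted p = 0.0328). Irs1, an adaptor of insulin signalling that can also bind Il4ra, fell from 109 ± 20.8 to 62.7 ± 11.1 CPM (edgeR adjusted p = 0.0249). The calls of Jak1 and Stat3 were lost without blister 1, control 1, control 2 or control 3 (edgeR adjusted p up to 0.107 and 0.129), and that of Irs1 without blister 1, blister 2, control 1 or control 3 (up to 0.0765). With library size alone Jak1 and Stat3 were not called either, at log2 fold changes of 0.37 and 0.30 (edgeR adjusted p = 0.0932 and 0.141) against 0.63 and 0.55. Leaving out blister 3 and control 3 together also ended these calls (edgeR adjusted p = 0.0730 for Jak1 and 0.0813 for Stat3). The replicate number as a block ended that of Stat3 (edgeR adjusted p = 0.0544).

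Among 9 tested inhibitors, 2 rose and 1 fell (22.2% and 11.1%, against 9.74% and 11.6% of all tested genes). Socs3, a feedback inhibitor of gp130 receptors, rose from 30.8 ± 2.48 to 83.5 ± 40.9 CPM and Socs5, which can bind Il4ra, from 53.4 ± 8.03 to 78.7 ± 8.23 CPM (edgeR adjusted p = 0.0256 and 0.0360). Bcl6, a repressor that competes for Stat6 sites, fell from 63.1 ± 3.18 to 40.5 ± 9.55 CPM (edgeR adjusted p = 0.0423). Socs1, the feedback inhibitor most tied to interleukin 4 signalling, was at 4.16 ± 1.03 against 6.83 ± 1.29 CPM (edgeR adjusted p = 0.0997; chosen after its value was seen). All 3 calls were lost without blister 1, blister 2, control 1 or control 2, and those of Socs3 and Bcl6 also without control 3, with edgeR adjusted p of up to 0.0886 (Socs3), 0.108 (Socs5) and 0.127 (Bcl6). They were also lost with Xist as a covariate (edgeR adjusted p = 0.0780 for Socs3, 0.0610 for Socs5 and 0.0795 for Bcl6), and that of Socs5 with library size alone (log2 fold change 0.31, 0.240). The replicate number as a block ended the calls of Socs5 and Bcl6 (edgeR adjusted p = 0.0520 and 0.0543).

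Of 16 listed targets of interleukin 4, interleukin 13 and Stat6, 8 passed the filter. Of these, 1 rose and 1 fell (12.5% each, against 9.74% and 11.6% of all tested genes). Il24, a cytokine of the interleukin 10 family that interleukin 4 can induce, rose from 0.149 ± 0.154 to 5.03 ± 3.91 CPM (edgeR adjusted p = 0.0131). It had 37, 69 and 26 counts in the blister libraries and 4, 2 and 0 in the controls. Il24 thus passed the filter through the blister libraries alone, so its call could only be a rise. Its blister mean was 2.80 CPM without blister 2, and its control mean 0.0700 CPM without control 1 and 0.223 CPM without control 3. Pparg, a nuclear receptor of lipid cells and of alternatively activated macrophages, fell from 26.5 ± 6.17 to 8.27 ± 3.00 CPM (edgeR adjusted p = 0.0130, and 0.0501 without control 1). The chemokine genes Ccl17, Ccl24 and Ccl11 and the genes Retnla, Chil3, Fcer2a, Cdh26 and Alox15 did not pass the filter. Of these, Chil3 (singled out after its values were seen) had 5, 78 and 6 counts in the blister libraries. In the controls it had 0, 0 and 6, so its difference rests mostly on blister 2. With no filter, and also with DESeq2, 2 targets were called higher.

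Of 18 tested inducers and regulators of Tslp, 2 rose and 1 fell (11.1% and 5.56%, against 9.74% and 11.6% of all tested genes). Il1b, which induces Tslp in keratinocytes, rose from 1.64 ± 1.19 to 66.5 ± 45.2 CPM (edgeR adjusted p = 0.00740; 43.1 CPM in blister without blister 1 and 0.958 CPM in control without control 1). Klk7, a protease of the outer epidermis, rose from 493 ± 115 to 878 ± 30.7 CPM (edgeR adjusted p = 0.0233). Vdr, the vitamin D receptor, whose activation induces Tslp in mouse skin, fell from 241 ± 24.9 to 121 ± 48.5 CPM (edgeR adjusted p = 0.0375). F2rl1, the protease receptor through which kallikreins act on Tslp, was at 76.0 ± 17.6 against 69.4 ± 8.35 CPM, and Klk5 at 131 ± 35.2 against 143 ± 42.5 CPM (edgeR adjusted p = 0.643 and 0.747; both chosen after their values were seen). The call of Klk7 was lost without blister 1, blister 2 or control 1 (up to 0.0715) and with library size alone (log2 fold change 0.58, edgeR adjusted p = 0.0564), and that of Vdr when any 1 library other than blister 3 was left out (up to 0.101).

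**Figure D3:**
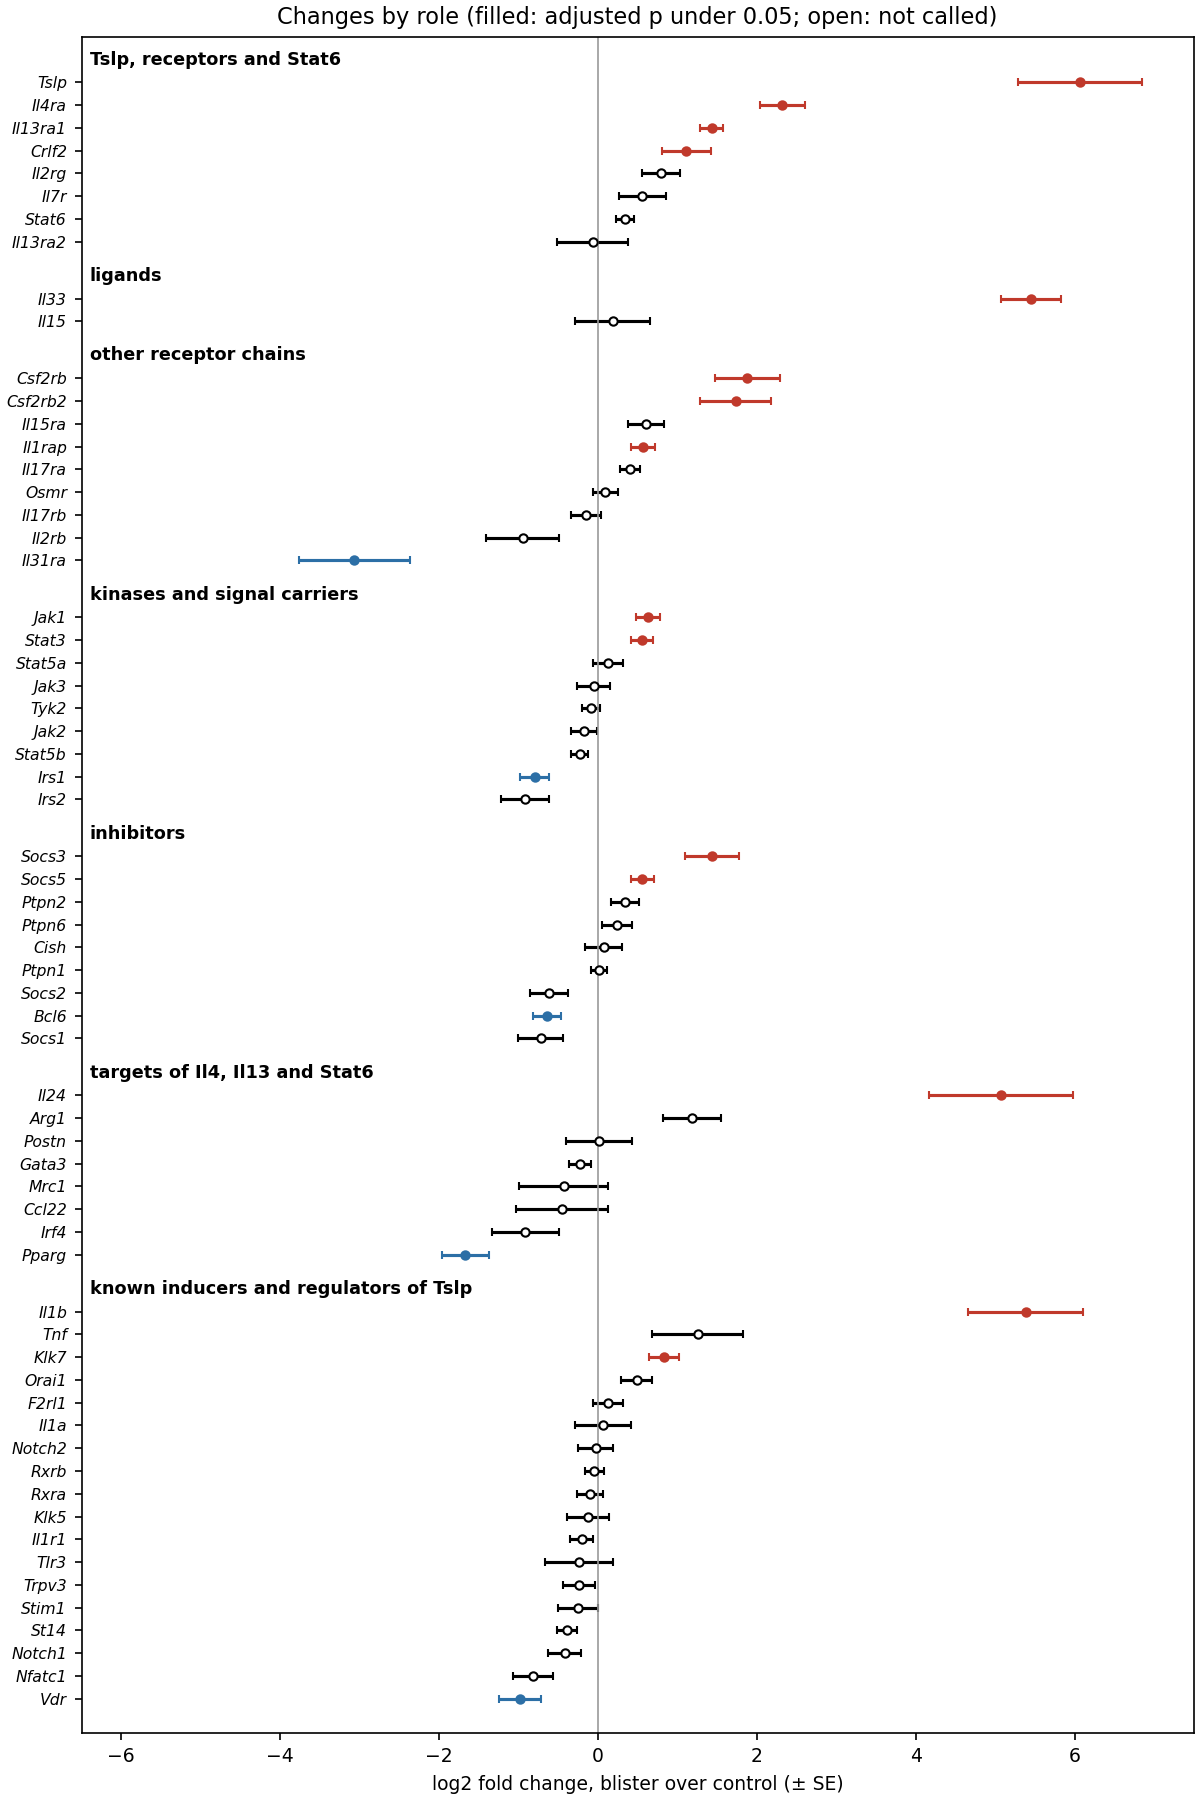
Log2 fold change, blister over control, ± SE for the 8 genes and the 55 tested pathway genes, grouped by role; filled points (red higher, blue lower) passed an adjusted p under 0.05 and open points did not. Apart from the 8 genes, 11 points are filled to the right and 5 to the left, with Il33, Il1b and Il24 farthest right and Il31ra farthest left.

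Markers of cells that carry these receptors were read in the same libraries, and their part in the results was not tested. Over all tested genes, 9.74% were called higher and 11.6% lower. Keratinocyte markers summed to between 103109 and 191473 CPM in blister and 61361 and 86127 CPM in control libraries, with Krt1 the most abundant, and 3 of 6 rose. Of 7 neutrophil markers listed, 5 were tested, and these 5 rose. Retnlg had 3, 2 and 5 counts in the controls and Cxcr2 1, 7 and 11 (named after their values were seen). Both passed the filter through the blister libraries alone, so their calls could only be a rise. The 7 markers summed to 491, 752 and 245 CPM in the blister libraries against 11.8, 4.41 and 9.73 CPM in the controls. Most of the blister sums came from S100a9, the most abundant, and S100a8 (named after its value was seen), which injured keratinocytes also express. S100a9 was at 250.2 ± 113 against 3.08 ± 2.02 CPM (2.02 CPM without control 1). Without S100a8 and S100a9 the neutrophil sums were 71.4, 138 and 42.7 CPM in the blister libraries and 3.30, 2.24 and 4.49 CPM in the controls, so the groups stayed apart.

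Lymphoid and macrophage markers were not called in either direction. T cell markers, which mark the main carriers of Il7r and Il2rg, summed to 17.9 to 19.8 CPM in blister and 17.7 to 36.1 CPM in control, led by Cd3g, with 0 of 5 tested called. Macrophage, dendritic and Langerhans cell markers summed to 124 to 191 CPM in blister and 137 to 178 CPM in control, led by Cd74, with 0 of 8 called. The innate lymphoid and NK cell list held 2 tested genes, 0 called, and its sum, 63.2 to 141 CPM in blister and 85.6 to 102 CPM in control, was mostly Rora, which keratinocytes also express; Klrg1 was at 0 in all 6 libraries. At an unadjusted p under 0.05, edgeR gave 5477 of all tested genes.

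Of the granulocytes of type 2 responses, eosinophils left little RNA, and mast cell genes stood out in 1 control library. Eosinophil markers summed to at most 1.10 CPM in any library, led by Siglec5, the older symbol of Siglecf, and 0 of the 4 passed the filter. Mast cell and basophil markers summed to 13.8, 23.0 and 31.5 CPM in the blister libraries and 59.8, 40.5 and 221 CPM in the controls. In control 3 the mast cell genes Cma1, Tpsb2, Cpa3 and Mcpt4 (named after their values were seen) were at 51.5, 48.4, 37.0 and 25.8 CPM, against at most 2.48 CPM in any other library. Kit, the most abundant and also a melanocyte gene, was the 1 of 4 tested that fell. Dermal fibroblast markers, led by Col3a1, summed to 106, 805 and 144 CPM in the blister libraries and 644, 873 and 6047 CPM in the controls, so the groups overlapped and control 3 stood far above the rest. Of these markers 3 of 6 fell (Dcn, Lum and Pdgfra), and without control 3 their control means went from 93.4, 16.2 and 38.6 to 41.6, 4.99 and 23.3 CPM. Endothelial markers, led by Pecam1, summed to 3.30, 7.85 and 6.20 CPM against 8.52, 12.1 and 58.1 CPM, again highest in control 3, with 1 of 4 lower.

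**Figure D4:**
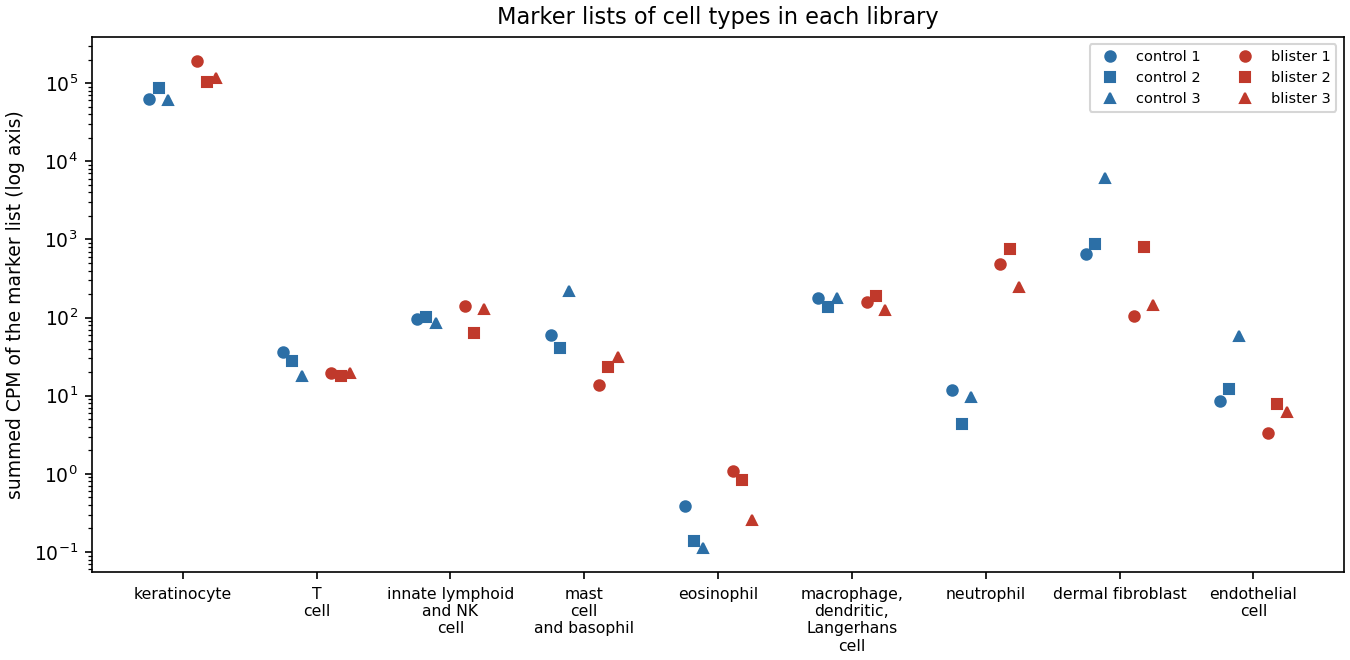
Summed CPM (log axis) of each marker list in the 6 libraries, blister in red and control in blue, with the replicate number as marker shape. The neutrophil sums lie at 245 to 752 CPM in blister and 4.41 to 11.8 CPM in control, while T cell and macrophage sums overlap between groups.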

How the data were processed

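RNA of 6 libraries (3 blister, 3 control) was read from the authors' deposited raw read counts per gene symbol, unscaled; the submitters' processing notes name HISAT2 2.0.0, featureCounts and the builds NCBIM37 and mm9. The sources used here give neither the strand setting nor the featureCounts version. The test was edgeR 4.0.16 under R 4.3.3 (quasi-likelihood, TMM, filterByExpr with minimum count 10 and minimum total 15, group as sole term, two-sided, Benjamini-Hochberg, threshold 0.05); of 24014 genes, 14028 were tested. CPM uses TMM-scaled sizes; log2 CPM has a prior count of 2. Exon lengths are merged GENCODE M21 exons (GRCm38), another build than the authors', so levels per kilobase are approximate. No library copied another.

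The members and lists were chosen with earlier results of these data known. Named pathway genes are all called genes of each list (at most 4 per list) plus Il4, Il13, Il33, Il1rl1 and the 4 Janus kinases; of marker lists, the most abundant gene and any at 0 throughout. Genes named only as failing the filter fall outside this rule. 1 other gene of the pathway is not reported here. In simulated counts for this comparison (13855 genes), edgeR made 7 false calls and found 44 of 98 changes of 2-fold and 83 of 97 of 4-fold. Alternatives were median-of-ratios scaling, library size alone, no filter, at least 5 CPM in 3 libraries, DESeq2 1.42.0, limma-voom (limma 3.58.1), the replicate number as a block, Xist as a covariate, each library left out, and blister 3 and control 3 left out together. Plots used matplotlib 3.10.9.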

Additional observations from a re-analysis of the deposited data

How the results depend on the processing

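The 8 genes were chosen on this comparison, so the calls among them support nothing. Over the 15 alternatives the log2 fold changes of Tslp, Il4ra and Il13ra1 ran from 5.15 to 6.76, 2.05 to 2.70 and 1.16 to 1.53. Il2rg was called with DESeq2 and without blister 3, and Stat6 with DESeq2 and without blister 2, while Crlf2 lost its call in 8 of 15. With library size alone, 544 genes were called higher and 2831 lower (1367 and 1626 with TMM), and pathway genes 5 and 11. DESeq2 called 8 pathway genes lower, as did leaving out blister 3 and control 3 together. With Xist as a covariate 702 genes were called higher and 1043 lower, and 7 pathway genes higher. With each library left out in turn, calls over all genes ran from 306 (without control 1) to 1998 (without blister 3) higher and 479 (without control 1) to 2063 (without blister 3) lower, pathway calls from 3 to 12 higher and 0 to 9 lower, and calls among the 8 genes from 3 to 5 higher and 0 lower. Fewer libraries are tested there. The deviations of same-numbered libraries from their group means correlated at 0.21, -0.26 and 0.01. With 3 libraries per group, these values cannot settle whether the numbers pair the libraries. With the replicate block 1365 genes were called higher and 1511 lower, pathway genes 6 and 6, and members 3 and 0, Crlf2 being lost. With the longest transcript as length, control levels were 42.5 (Stat6), 5.87 (Il2rg) and 0.477 (Il7r) CPM per kilobase, and the control order was the same; in blister, Il2rg passed Crlf2 and Il7r passed Il13ra2. Depth limits Il13ra2, Il7r and control Tslp most. Other causes of these shifts were not tested.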
